A study of Mus musculus with 18 samples.

Results

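The 10 genes described here are the Toll-like receptors Tlr2, Tlr3, Tlr4, Tlr7 and Tlr13, the co-receptors Cd14 and Ly96, the adaptors Myd88 and Ticam1, and the kinase-like inhibitor Irak3. They were chosen by name from 34989 genes, with earlier results of these data known. The estimated counts of all their transcripts were summed in each library. Toll-like receptors are membrane proteins of innate immune cells, endothelium and, at lower levels, other heart cells, and they bind microbial products and molecules released by injured tissue. Tlr2 and Tlr4 sit at the cell surface, Tlr4 with its partner Ly96 (MD-2) and with Cd14, which hands ligands to both receptors. Tlr3, Tlr7 and Tlr13 sense RNA in endosomes. Nearly all of these receptors signal through Myd88 to NF-kB, Tlr3 signals through Ticam1 (TRIF), Tlr4 uses both adaptors, and Irak3 (IRAK-M) restrains the Myd88 route.

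The 18 libraries came from hearts of wild-type C57B/L6 mice labelled as 12 weeks old. Hearts were flushed with histidine-tryptophan-ketoglutarate (HTK), a cardioplegic preservation solution, and kept ice-cold in it for 0 h, 4 h or 8 h. All of them, the 0 h hearts included, were then perfused ex vivo with Krebs buffer for 60 min before the left ventricle (LV) and right ventricle (RV) were frozen. There were 3 libraries for each ventricle and time. No unperfused heart was in the series, so each comparison of storage times was made among perfused hearts, and no blood circulated during perfusion. Whether a replicate number names 1 heart across LV and RV was not stated in the labels, and p-values measure the spread between these libraries.

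Levels are given as CPM, counts scaled to the library total with a TMM factor, which compare a gene between libraries. TPM values, which also correct for transcript length, were used to compare genes with each other. The libraries held 22552581 to 46236771 estimated counts, of which 22.6% to 34.3% were mitochondrial. The libraries numbered 3 at 4 h and 8 h stood apart from the others of their groups in both ventricles. Summed levels of 4 Y-linked genes were 4.63 to 6.78 CPM in 6 libraries (number 2 at 0 h and number 3 at 4 h and 8 h) and 133 to 194 CPM in the others. The summed level of 8 interferon-route targets was 4400 to 9977 CPM in number 3 after storage and 310 to 2039 CPM in the other stored libraries. Values with the libraries numbered 3 left out at every time, a choice made after the data were seen, are therefore given beside the results that moved. Without number 3, a library of low Y-linked level stays at 0 h (number 2) and none stays at 4 h or 8 h. Those fits thus compare groups that differ in Y-linked level as well, and the study used mice of both sexes.

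Before storage, Cd14 and Myd88 were the most abundant of the 10 transcripts per length, at 12.0 ± 3.55 TPM and 10.6 ± 1.64 TPM (SD, n = 6, LV and RV together). Tlr2 followed at 8.21 ± 2.90 TPM. Tlr4 (4.00 ± 1.21 TPM), Ticam1 (3.76 ± 0.58 TPM), Tlr3 (3.35 ± 0.73 TPM), Ly96 (3.33 ± 0.61 TPM) and Irak3 (3.21 ± 0.52 TPM) did not differ beyond their spread. Cd14, Myd88 and Tlr2 did not differ beyond their spread from each other either. These spreads pool LV and RV libraries of the same replicate numbers, which may not be independent. Tlr7 was at 1.20 ± 0.31 TPM and Tlr13 at 0.337 ± 0.13 TPM. All 10 genes passed the filter on low counts, but Tlr13 rested on 10 to 56 counts per library and Ly96 on 27 to 54, so that small changes of these genes were not detectable at this depth.

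After storage, 6 genes were called higher in RV at both times, and none of the 10 was called lower in any comparison with 0 h, where 0.398% and 1.26% of all genes were called lower in LV at 4 h and 8 h and 3.91% and 5.26% in RV. A gene was called at an adjusted p under 0.1 by the quasi-likelihood test of edgeR and a fold change over 1.5. In LV, 2 of 10 genes were called higher at 4 h (Cd14 and Irak3), where 2.40% of all genes tested were called higher. In LV at 8 h, 5 of 10 were called higher (Cd14, Irak3, Tlr2, Tlr7 and Myd88), against 5.46% of all genes. In RV, the same 5 genes and Tlr4 were called higher at 4 h, against 6.17% of all genes, and again at 8 h, against 13.0%. As the 10 genes were chosen with earlier results of these data known, these counts do not test the family. The median log2 fold change over the 10 genes was 1.09 and 1.30 in LV at 4 h and 8 h and 1.29 and 1.58 in RV, while that over all genes tested lay between -0.07 and 0.003. In bulk tissue, a change in RNA per cell and a change in the number of cells of a type cannot be told apart.

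**Figure D1:**
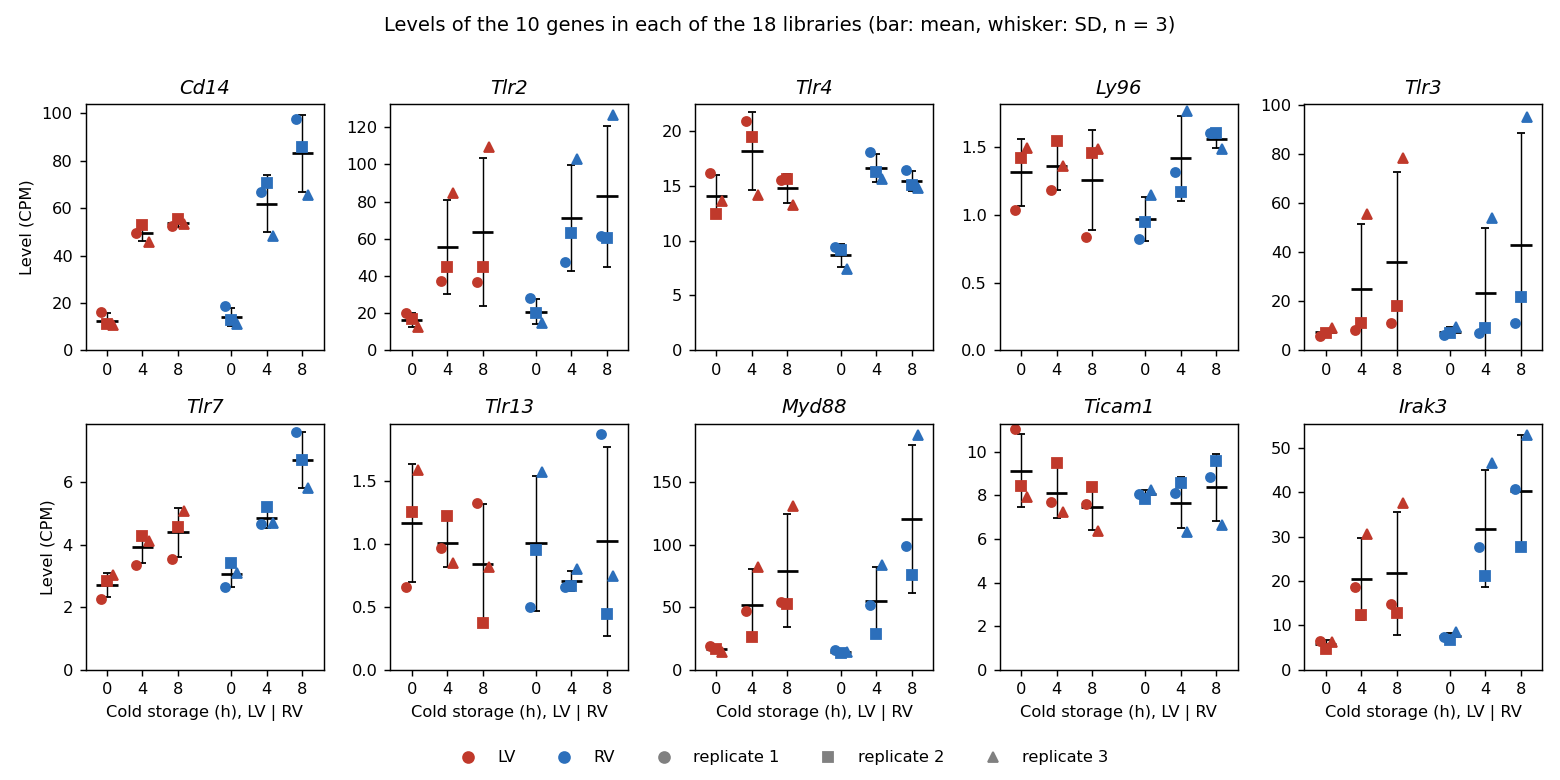
Levels of the 10 genes in each library (y axis, CPM, linear from 0) by hours of cold storage (x axis), LV in red on the left and RV in blue on the right of each panel; marker shapes give the replicate number, bars the mean and whiskers the SD (n = 3), cut at 0. Cd14 rose from 10.6 to 18.5 CPM at 0 h to 45.8 CPM or more in every stored library, whereas Tlr3 reached 54.0 to 95.3 CPM in the libraries numbered 3 and 21.8 CPM at most in the others.

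Cd14, the co-receptor that carries lipopolysaccharide and other lipids to Tlr4 and Tlr2, was called higher in all 4 comparisons and kept each call when any 1 library was left out. In LV it was at 16.2, 10.9 and 10.6 CPM at 0 h, 49.6, 52.8 and 45.8 CPM at 4 h, and 52.4, 55.3 and 53.2 CPM at 8 h. In RV it was at 18.5, 12.9 and 11 CPM at 0 h, 66.8, 70.5 and 48.0 CPM at 4 h, and 97.6, 85.9 and 65.7 CPM at 8 h. Every stored library was above every 0 h library of its ventricle, and the RV levels at 8 h lay above all LV levels. The log2 fold change was 1.97 (SE 0.17, adjusted p = 0.00529) and 2.09 (SE 0.17, adjusted p = 0.00199) in LV at 4 h and 8 h, a 3.93-fold and 4.27-fold rise. In RV it was 2.14 (SE 0.24, adjusted p = 0.00403) and 2.56 (SE 0.25, adjusted p = 0.00107), a 4.41-fold and 5.90-fold rise. Without the libraries numbered 3 these values were 1.90, 1.96, 2.13 and 2.53, and all of them were called.

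Tlr4, the receptor that Cd14 serves, changed less and in RV alone by the call. In RV it was at 9.41, 9.11 and 7.41 CPM at 0 h, 18, 16.2 and 15.6 CPM at 4 h, and 16.4, 15.1 and 14.8 CPM at 8 h, with no overlap between stored and 0 h libraries. In LV it was at 16.2, 12.5 and 13.6 CPM at 0 h, 20.9, 19.4 and 14.1 CPM at 4 h, and 15.5, 15.6 and 13.2 CPM at 8 h, and these ranges overlapped. The RV log2 fold change was 0.96 (SE 0.14, adjusted p = 0.00928) at 4 h and 0.85 (SE 0.14, adjusted p = 0.00718) at 8 h. The LV values were 0.37 (SE 0.17, adjusted p = 0.335) and 0.07 (SE 0.17, adjusted p = 0.824). The stored RV libraries lay at the level of the LV libraries, and the 0 h RV libraries lay below them.

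Ly96, the MD-2 protein that completes the lipopolysaccharide-binding site of Tlr4, was at 0.82 to 1.77 CPM throughout. In RV its 3 libraries were at 0.82 to 1.14 CPM at 0 h, 1.17 to 1.77 CPM at 4 h and 1.48 to 1.60 CPM at 8 h, and the stored ranges did not overlap that of 0 h. It was not called in RV at 4 h (log2 fold change 0.56, SE 0.28, adjusted p = 0.285) or at 8 h (0.70, SE 0.28, adjusted p = 0.124). With the replicate number as a block, the RV 8 h value was 0.71 (SE 0.27, adjusted p = 0.0910) and was called. In that fit 8 of the 10 genes, Tlr3 among them, were called higher, against 15.5% of all genes. Across storage times this block joins libraries of different hearts, so its calls do not rest on paired hearts. DESeq2, the method of the study, called Ly96 in RV at 8 h too (0.74, SE 0.33, adjusted p = 0.0944). In LV Ly96 was at 1.03 to 1.49 CPM at 0 h and 0.83 to 1.48 CPM at 8 h.

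Within each library, the ratio of Cd14 to Tlr4 (TPM over TPM, free of scaling between libraries) was higher after storage in both ventricles. In LV it was 2.23 ± 0.36 at 0 h, 7.13 ± 0.94 at 4 h and 8.93 ± 0.36 at 8 h (SD, n = 3). RV ratios were 4.19 ± 0.89, 9.98 ± 1.77 and 13.8 ± 1.76. All 12 stored libraries were above the 6 at 0 h, and this ratio was not tested. The ratio of Tlr4 to Ly96 overlapped between times, with 1.15 to 1.71 at 0 h and 1.11 to 2.31 at 8 h in LV, and 0.71 to 1.32 and 1.14 to 1.24 in RV.

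Tlr2, the surface receptor for lipoproteins that pairs with Tlr1 or Tlr6, was higher in every stored library than in any 0 h library of the same ventricle. In LV it was at 20.1, 16.6 and 12.6 CPM at 0 h, 37.2, 45.1 and 84.6 CPM at 4 h, and 36.7, 44.7 and 109 CPM at 8 h. RV libraries were at 28.1, 19.9 and 14.6 CPM, then 47.6, 63.3 and 103 CPM, then 61.3, 60.5 and 127 CPM. Number 3 was the lowest of its group at 0 h and the highest after storage in both ventricles. The log2 fold change was 1.76 (SE 0.45, adjusted p = 0.108) in LV at 4 h, which was not called, and 1.95 (SE 0.45, adjusted p = 0.0516) at 8 h. The RV values were 1.79 (SE 0.41, adjusted p = 0.0367) and 2.02 (SE 0.41, adjusted p = 0.0142). Without the libraries numbered 3 it was 1.16 and 1.12 in LV and 1.21 and 1.33 in RV, smaller changes with SEs of 0.17 to 0.22 that were all called. The calls in LV at 8 h and in RV at 4 h were lost without the 0 h library numbered 2 or 3, and the former also without number 3 at 8 h alone.

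Of the endosomal receptors, Tlr7 was called higher in LV at 8 h and in RV at both times, and Tlr3 and Tlr13 were not called. Tlr7, which senses single-stranded RNA, was at 2.27, 2.84 and 3.02 CPM in LV at 0 h, 3.36, 4.28 and 4.12 CPM at 4 h, and 3.55, 4.58 and 5.07 CPM at 8 h. The RV libraries were at 2.63, 3.42 and 3.10 CPM at 0 h, 4.65, 5.21 and 4.67 CPM at 4 h, and 7.59, 6.71 and 5.82 CPM at 8 h. The stored and 0 h ranges of Tlr7 did not overlap. Its log2 fold change was 0.54 (SE 0.20, adjusted p = 0.243) and 0.70 (SE 0.20, adjusted p = 0.0905) in LV, and 0.68 (SE 0.17, adjusted p = 0.0509) and 1.15 (SE 0.17, adjusted p = 0.00453) in RV. Number 3 did not stand apart in Tlr7. With number 3 left out the LV 8 h value was 0.65 (SE 0.25, adjusted p = 0.233) and the RV 4 h value 0.71 (SE 0.22, adjusted p = 0.118), and neither was called. The calls of Tlr7 were also lost without any of 7 single libraries in LV at 8 h and any of 6 in RV at 4 h, and its call in RV at 8 h was kept in each such fit.

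Tlr3, the receptor for double-stranded RNA, was at 5.82, 7.16 and 8.96 CPM in LV at 0 h, 8.27, 11 and 55.4 CPM at 4 h, and 11.2, 18.2 and 78.4 CPM at 8 h. The RV values were 6.34, 7.08 and 9.60 CPM, then 6.96, 9.02 and 54.0 CPM, then 11.3, 21.8 and 95.3 CPM. The last value of each stored group is number 3, and with it in the fit Tlr3 was not called by edgeR without the block. The log2 fold change was 2.30 (SE 0.87, adjusted p = 0.161) in LV and 2.53 (SE 0.94, adjusted p = 0.107) in RV at 8 h, and 1.77 (SE 0.86) and 1.63 (SE 0.92) at 4 h. Without number 3 it was 1.16 (SE 0.27, adjusted p = 0.0597) in LV and 1.29 (SE 0.32, adjusted p = 0.0534) in RV at 8 h, both called, and 0.57 and 0.26 at 4 h, not called. With the replicate block, which joins different hearts across storage times, the RV 8 h value was 1.84 (SE 0.47, adjusted p = 0.0319) and was called. DESeq2, the method of the study, called Tlr3 at 8 h with number 3 included. Its values were 2.35 (SE 0.96, adjusted p = 0.0951) in LV and 2.58 (SE 1.02, adjusted p = 0.0572) in RV, and it made no call at 4 h. At 8 h every Tlr3 value was above every 0 h value of its ventricle, and at 4 h the ranges overlapped.

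Tlr13, which senses bacterial ribosomal RNA and, like Tlr7, lies on the X chromosome, was at 0.37 to 1.87 CPM in all libraries. Its ranges overlapped at every time. The log2 fold changes were -0.19, -0.45, -0.49 and 0.04 in the order LV 4 h, LV 8 h, RV 4 h and RV 8 h, with SEs of 0.47 to 0.56.

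**Figure D2:**
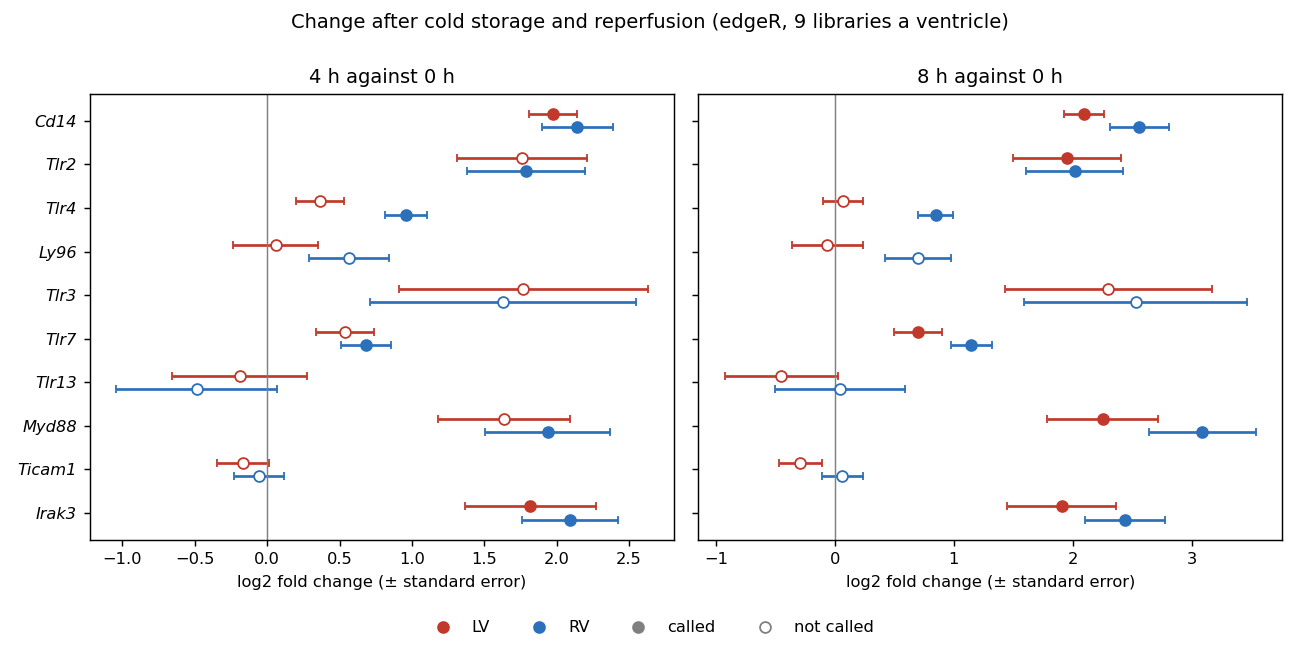
Log2 fold change (x axis, ± SE) of each gene against 0 h in LV (red) and RV (blue) at 4 h (left) and 8 h (right), from the edgeR fit of the 9 libraries of a ventricle; filled points were called and open points were not. Cd14 and Irak3 were called in all 4 comparisons, Tlr4 in RV only, and Tlr3, Tlr13, Ly96 and Ticam1 in none.

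The 2 adaptors moved apart. Myd88 was higher in every stored library than in any 0 h library of its ventricle, and Ticam1 was not called at any time. In LV Myd88 was at 18.7, 16.7 and 14.6 CPM at 0 h, 46.6, 26.2 and 82.6 CPM at 4 h, and 54.2, 52.3 and 131 CPM at 8 h. RV levels were 15.6, 13.6 and 14.2 CPM, then 51.5, 28.7 and 83.9 CPM, then 99.1, 75.8 and 188 CPM. Number 3 was the highest of every stored group and number 2 the lowest. The log2 fold change was 1.64 (SE 0.46, adjusted p = 0.132) in LV at 4 h, not called, and 2.25 (SE 0.47, adjusted p = 0.0386) at 8 h. In RV it was 1.94 (SE 0.43, adjusted p = 0.0349) and 3.09 (SE 0.45, adjusted p = 0.00405), an 8.51-fold rise at 8 h. Without number 3 it was 1.03 and 1.56 in LV and 1.47 and 2.56 in RV, all called. Its calls in LV at 8 h and in RV at 4 h were lost without the 0 h library numbered 2 or 3.

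Ticam1 was at 6.34 to 11 CPM in all 18 libraries, and its log2 fold changes lay between -0.29 and 0.06 with SEs of 0.17 to 0.18. The within-library ratio of Myd88 to Ticam1 in TPM was 2.65 to 3.06 in the 6 libraries at 0 h. After storage it was 4.5 to 17.6 at 4 h and 9.69 to 31.8 at 8 h in LV, and 5.37 to 20.8 and 12.3 to 43.7 in RV, with the highest value of each range in number 3. No stored library reached down to the 0 h range. The ratio was not tested.

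Irak3, which blocks the release of Irak kinases from the Myd88 complex, was at 6.40, 4.69 and 6.28 CPM in LV at 0 h, 18.6, 12.2 and 30.6 CPM at 4 h, and 14.8, 12.8 and 37.7 CPM at 8 h. RV libraries had 7.43, 6.81 and 8.46 CPM, then 27.6, 21.2 and 46.5 CPM, then 40.8, 27.6 and 52.9 CPM. Every stored value was above every 0 h value. Its log2 fold change was 1.82 (SE 0.45, adjusted p = 0.0997) and 1.91 (SE 0.46, adjusted p = 0.0559) in LV, and 2.09 (SE 0.33, adjusted p = 0.0106) and 2.44 (SE 0.33, adjusted p = 0.00325) in RV. The LV 4 h value lay at the edge of the threshold and lost its call without any of 7 of the 9 libraries, and the LV 8 h call was lost without any of 4 (the 3 at 0 h and number 3 at 8 h). Without number 3 the values were 1.46, 1.28, 1.79 and 2.25, all called. Both Irak3 and Myd88 were called higher in RV at both times and in LV at 8 h. The within-library ratio of Irak3 to Myd88 in TPM was 0.255 ± 0.043 in LV before storage, 0.304 ± 0.059 after 4 h and 0.193 ± 0.018 after 8 h (SD, n = 3). RV had ratios of 0.362 ± 0.043, 0.414 ± 0.076 and 0.242 ± 0.044. Its ranges at 0 h and 4 h overlapped, and those at 8 h lay below both without overlap. The ratio was not tested.

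**Figure D3:**
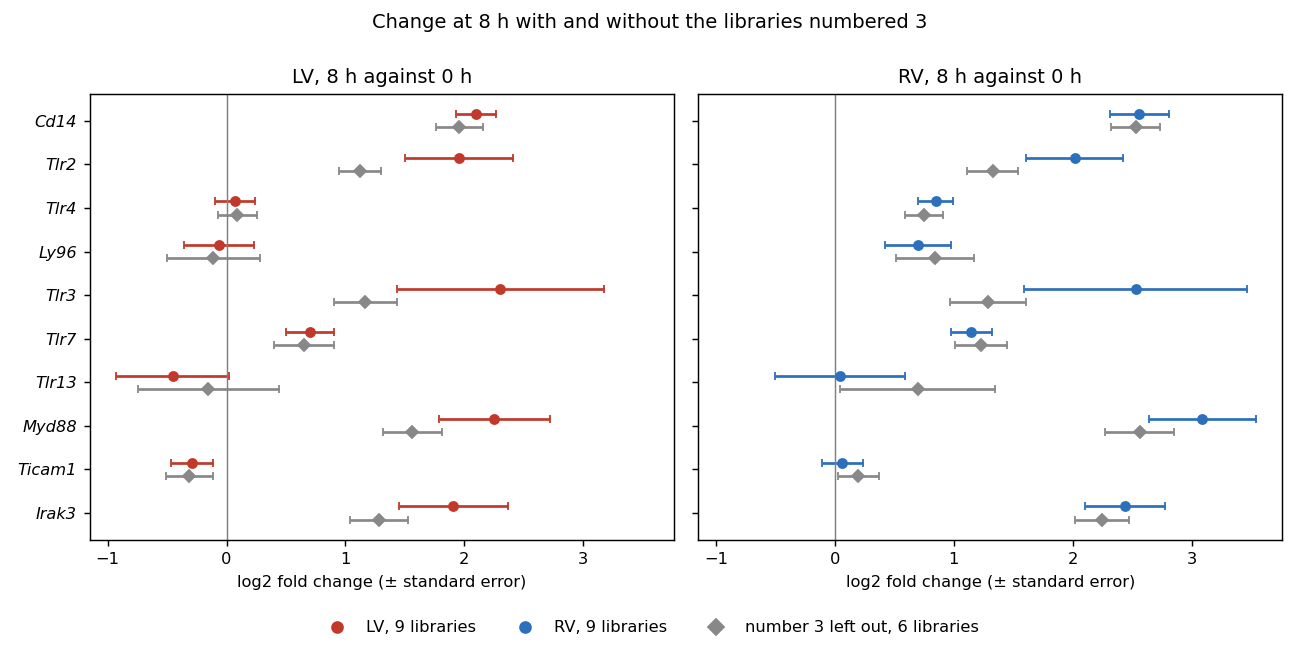
Log2 fold change at 8 h against 0 h (x axis, ± SE) of each gene in LV (left) and RV (right), with all 9 libraries of the ventricle (circles) and with the 3 libraries numbered 3 left out (grey diamonds, 6 libraries). Cd14 was at 2.09 and 1.96 in LV, while Tlr3 went from 2.30 to 1.16 and Tlr2 from 1.95 to 1.12.

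Ranges of stored and 0 h libraries did not overlap, with the stored ones higher, for 5 of 10 genes in LV at 4 h and 6 at 8 h, where the same held for 12.8% and 15.5% of all genes tested. In RV they did not overlap for 7 and 8 of 10 genes, against 14.8% and 18.3%. Tlr13 and Ticam1 overlapped in all 4 comparisons. Between 4 h and 8 h, no gene of the 10 was called in either ventricle by edgeR or by DESeq2, and 0 of all genes tested were called without the block, while an unadjusted p under 0.05 was found for 8.10% of genes in LV and 6.57% in RV. DESeq2 called 0.474% and 0.335% of all genes. In RV 2 of the 10 genes passed at an unadjusted p under 0.05, Myd88 with a log2 difference of 1.15 between 8 h and 4 h (SE 0.42, adjusted p = 0.599) and Tlr7 with 0.46 (SE 0.17, adjusted p = 0.599), and in LV none did. Myd88 was higher at 8 h in 3 of 3 same-numbered RV pairs, which join different hearts, although the ranges overlapped. The RV ranges of Tlr7 at 4 h and 8 h did not overlap. With the replicate block, the difference of Myd88 was 1.16 (SE 0.27, adjusted p = 0.291), and neither gene was called.

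The ventricles were compared next, since the study asks whether LV and RV respond alike. Without a block none of the 10 genes was called between LV and RV at any time or in the difference of their changes by edgeR, against 0.159%, 0.0133% and 0.0331% of all genes at 0 h, 4 h and 8 h and 0 genes for the differences. At an unadjusted p under 0.05, 1 gene passed at 0 h (Tlr4) and 3 at 8 h (Tlr7, Cd14 and Irak3), against 3.21% and 11.1% of all genes, and the difference of the changes passed for Tlr4 at 4 h and 8 h, while 1.05% and 4.16% of all genes passed in these differences. DESeq2 called 1 gene at 0 h (Tlr4, with 0.411% of all genes) and 1 at 8 h (Tlr7, with 1.25%), and none at 4 h, where it called 0.166% of all genes, or in the differences, where it called 0 genes at 4 h and 0.0133% at 8 h. Same-numbered LV and RV libraries deviated together (correlations of 0.33 to 0.70), so the replicate number at each time was also used as a block, with 1.85%, 1.93% and 8.78% of all genes called.

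With the block, Tlr4 was higher in LV at 0 h by a log2 difference of 0.71 (SE 0.10, adjusted p = 0.00551), with LV higher in 3 of 3 pairs (0.78, 0.45 and 0.88). At 4 h the pairs were at 0.21, 0.26 and -0.14, and at 8 h at -0.09, 0.05 and -0.16, and neither time was called (adjusted p = 0.637 and 0.674). The change in LV minus that in RV at 8 h was -0.77 (SE 0.15, adjusted p = 0.00973), where 5.71% of all genes were called in either direction. Without the block this difference was the same size (-0.77, SE 0.22) with an adjusted p of 1. Ly96 had the same order at 0 h, with LV higher in 3 of 3 pairs (0.34, 0.58 and 0.39), and was not called (adjusted p = 0.468).

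With the block, Myd88 and 3 other genes were lower in the LV libraries of 8 h. Myd88 was lower by a log2 difference of -0.64 (SE 0.08, adjusted p = 5.4e-04), with pairs at -0.87, -0.53 and -0.52. Irak3 was at -1.01 (SE 0.14, adjusted p = 8.6e-04), with pairs at -1.46, -1.11 and -0.49. Cd14 (-0.62, SE 0.11, adjusted p = 0.00229) and Tlr7 (-0.63, SE 0.15, adjusted p = 0.0144) were lower as well, each in 3 of 3 pairs. Tlr2 was at -0.46 (adjusted p = 0.00611), below the fold needed for a call. Irak3 was lower in LV at 4 h too (-0.65, SE 0.14, adjusted p = 0.0388). Irak3, Cd14, Tlr7 and Tlr2 were each lower in LV in all 9 pairs of the 3 times, those at 0 h included. The summed level of 12 macrophage markers, described below, was lower in LV in each of these 9 pairs too. Among those 12 markers, the unblocked log2 difference between LV and RV was above 0 for 2 at 0 h, 2 at 4 h and 0 at 8 h. Whether the 4 genes differ beyond this shared offset was not tested. The share of all genes with 1 direction in every pair was not counted. With the block, 36.8% of all genes had an unadjusted p under 0.05 between the ventricles at 8 h by edgeR.

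Of these genes, Myd88 passed the test of the difference in change at 8 h, as Tlr4 did. The LV change minus the RV change of Myd88 was -0.84 (SE 0.12, adjusted p = 0.00256), and at 0 h LV had been above RV in the 3 pairs (0.27, 0.29 and 0.04). For Irak3 it was -0.62 (SE 0.22, adjusted p = 0.114), for Cd14 -0.45 (SE 0.16, adjusted p = 0.112) and for Tlr7 -0.45 (SE 0.23, adjusted p = 0.256), none of them called. At 4 h none of the 10 differed in its change, with 0.305% of all genes called. With the pair numbered 1 at 8 h left out of the blocked fit, 1 gene was called between the ventricles at 8 h instead of 4.

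**Figure D4:**
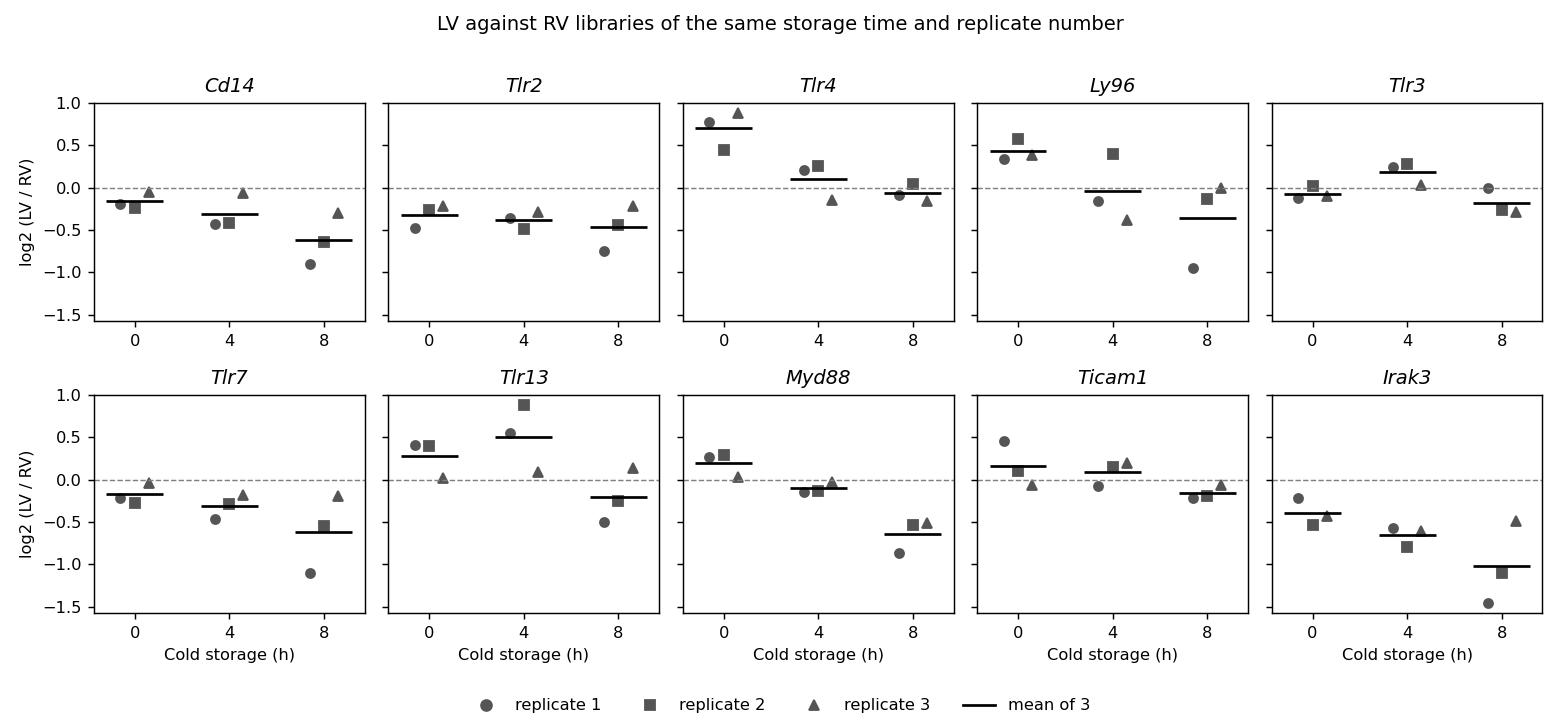
Log2 ratio of LV to RV (y axis) for each pair of libraries with the same replicate number at 0 h, 4 h and 8 h of storage (x axis); shapes give the number and bars the mean of 3 pairs. Tlr4 was above 0 in the 3 pairs at 0 h and near 0 at 8 h, and Myd88 went from 0.04 to 0.29 at 0 h to -0.87 to -0.52 at 8 h.

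Markers of some other cell types also differed between stored and 0 h libraries, and their part in the results was not tested. The summed level of 12 macrophage markers was 235 to 402 CPM in LV at 0 h and 303 to 505 CPM at 8 h, and 296 to 497 CPM and 362 to 667 CPM in RV. Of the 12, 1 was called higher in LV at 8 h (Fcgr1) and 4 in RV at 8 h (Fcgr1, Mrc1, Adgre1 and C1qb, log2 fold changes 2.81, 1.05, 0.90 and 0.82), against 5.46% and 13.0% of all genes. Csf1r, the growth factor receptor of macrophages, was at -0.15 and -0.14. In RV at 8 h, Myd88 (3.09) rose more than every macrophage marker. Cd14 (2.56) and Irak3 (2.44) rose more than all of these markers but Fcgr1. Tlr3 (2.53, not called), Tlr2 (2.02) and Tlr7 (1.15) were above Mrc1, Adgre1 and C1qb and below Fcgr1. Tlr4 (0.85) lay between C1qb and Adgre1. Ly96 (0.70), Ticam1 (0.06) and Tlr13 (0.04), none of them called, were below all the called macrophage markers. The summed level of 11 neutrophil markers went from 2.80 to 2.93 CPM to 12.0 to 22.8 CPM in LV and from 3.12 to 4.88 CPM to 14.8 to 23.0 CPM in RV at 8 h. At 0 h, 4 of the 11 were at 0 in LV (Ly6g, Retnlg, Mmp8 and Ngp) and 4 in RV (Ly6g, Mmp8, Camp and Ngp). Ly6g, which defines mouse neutrophils, was at 0 in every RV library and in LV at 0 h and 4 h. Csf3r was called higher in all 4 comparisons (2.52 in LV and 2.88 in RV at 8 h). S100a8 and S100a9 were called higher in LV at 8 h and were not tested in RV. The sums and these genes do not show how the remaining neutrophil markers went. The summed cardiomyocyte markers were 50939 to 62093 CPM in LV at 0 h and 35810 to 44284 CPM at 8 h, and 53452 to 62048 CPM and 23492 to 51134 CPM in RV, with the lowest value in number 3. The summed level of 4 monocyte markers was 1.28 to 5.10 CPM at 0 h and 6.07 to 7.75 CPM at 8 h in LV, without overlap, and 1.58 to 7.22 CPM and 3.24 to 12.1 CPM in RV. Of those tested, 1 of 2 was called higher in LV at 8 h (Ly6c2, 1.56), and in RV at 8 h 1 of 3 was called higher (Plac8, 3.29) and 1 lower (Ccr2, -1.31). The sum of 8 lymphocyte markers was 1.28 to 1.87 CPM at 0 h and 2.24 to 2.82 CPM at 8 h in LV, and 1.32 to 1.70 CPM and 2.13 to 3.22 CPM in RV, again without overlap, and 1 of 4 tested was called higher in RV at 4 h (Cd3d). Dendritic cell markers summed to 1.52 CPM at most. The sum of 5 endothelial markers was 545 to 712 CPM at 0 h and 481 to 706 CPM at 8 h in LV. In RV it was 509 to 793 CPM and 465 to 663 CPM, and the ranges overlapped in both ventricles. The sum of 4 fibroblast markers was 566 to 636 CPM at 0 h and 667 to 970 CPM at 8 h in LV. In RV it was 677 to 745 CPM and 756 to 1381 CPM, without overlap in either ventricle. The sum of 5 red cell markers was 4.51 to 6.21 CPM at 0 h and 11.9 to 196 CPM at 8 h in LV, without overlap, and 2.40 to 5.93 CPM and 3.96 to 52.3 CPM in RV, with overlap. Its highest value in each stored group was in number 1. Median log2 fold changes of the 4 red cell markers tested, all of them globin genes, were 3.85 in LV and 2.92 in RV at 8 h, with 2 of 4 called higher in LV and 0 in RV, and 4 of 4 in each with the replicate block.

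The rest of the pathway is given by role, in lists chosen by name with earlier results of these data known. Of all genes tested, 2.40% and 5.46% were called higher in LV at 4 h and 8 h, and 6.17% and 13.0% in RV. In RV 3.91% and 5.26% were called lower. The counts in these lists and in the marker lists above are to be read beside these shares. Of 7 other Toll-like receptors, 5 were tested in each ventricle, and Tlr1, the partner of Tlr2, was the 1 called higher, in LV at 8 h (1.44) and in RV at 4 h (1.40) and 8 h (1.92). The other partner, Tlr6, was at 0.49 and 0.42 at 8 h and was not called. Tlr8, beside Tlr7 in the genome and in function, was at 0.62 and 1.01, not called. Median log2 fold changes of these 5 at 8 h were 0.49 in LV and 0.42 in RV.

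Among 18 adaptors and kinases downstream of the receptors, 2 and 3 were called higher in LV at 4 h and 8 h, and 3 and 6 in RV, with 1 called lower at both RV times. The median log2 fold change was 0.17 in LV and 0.32 in RV at 8 h. Ripk1, a kinase on the Ticam1 route, was at 1.33 in LV and 2.37 in RV at 8 h. Ikbke, which phosphorylates interferon regulatory factors, was at 1.81 and 1.82, Irak2, a kinase of the Myd88 complex, at 1.39 and 1.81, and the ubiquitin ligase Peli1 at 1.19 (not called) and 1.79. The bridging adaptors Tirap (0.53 and 0.72) and Ticam2 (0.13 and -0.18) and the kinases Irak1 (-0.05 and -0.14) and Irak4 (0.20 and 0.31) were not called.

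Of 7 accessory genes, 2 were called higher in LV at 8 h and 1 in RV at 8 h, against 5.46% and 13.0% of all genes. Lbp, the serum protein that loads lipopolysaccharide onto Cd14, was at 1.88 and 2.34. Unc93b1, which carries Tlr3, Tlr7 and Tlr13 to endosomes, was at 0.44 and 0.47 and was not called. Among 9 inhibitors tested, 2 and 3 were called higher in LV and 4 and 4 in RV. These were Socs1 (4.02 in LV and 5.27 in RV at 8 h), Tnip1 (2.46 and 3.32), Tnfaip3 (1.58, not called, and 2.52) and Nfkbia (1.46 and 2.01), each induced in turn by NF-kB or interferon signals. Irak3 thus rose with 4 other inhibitors in RV, while Tollip was at -0.31 and -0.16 and was not called.

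Of the 5 transcription factors at the end of both routes, 3 were called higher in LV at 8 h and 4 in RV. Irf7 was at 3.72 and 4.62, Nfkb1 at 1.69 and 2.35, Rela at 0.92 (not called) and 1.74, and Irf5 at 1.19 and 1.44. Irf3, which Ticam1 acts through and which is controlled by phosphorylation, was at -0.15 and -0.01. Of 12 NF-kB targets, 7 and 7 were called higher in LV and 10 and 10 in RV, led at 8 h by Il6 (4.24 and 5.68) and Ptgs2 (2.26 and 3.94). Of 8 targets of the interferon route, 5 and 7 were called higher in LV and 6 and 7 in RV, with Cxcl10 at 5.86 and 6.51, and Ifnb1 itself not called (1.20 and 2.13).

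Among 10 genes for endogenous molecules reported to engage Tlr2 or Tlr4, 2 and 7 were called higher in LV, and 4 and 6 of the 8 tested in RV. S100a8 (6.89) and S100a9 (6.64), which are also neutrophil markers, were tested and called in LV at 8 h. The heat shock genes Hspa1b (3.32 and 4.57) and Hspa1a (2.78 and 4.24), whose transcripts come from near-identical gene copies, were called at 8 h in both ventricles. Hmgb1, whose protein acts after release from damaged cells, was at -0.04 and -0.16.

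The profiles of the 10 genes over the 18 libraries fell unequally close to each other. Tlr2, Myd88 and Irak3 ran together (Pearson r of log2 CPM 0.91 to 0.93), and Cd14 followed them at 0.82 to 0.85. Tlr3 was at 0.81 with Myd88 and 0.45 with Cd14, and Ticam1 was at -0.68 with Tlr3. These values describe libraries that share the storage contrast and the libraries numbered 3. Over all genes tested, the profile most like that of Tlr2 was that of Icosl (r = 0.98), followed by Vcam1 and Acod1 (both 0.98). For Cd14 it was Lcp2 (0.99), for Irak3 Fas (0.98), for Myd88 the class I gene H2-Q4 (0.99) followed by Ifitm3 and Plscr1 (both 0.99), and for Tlr3 Zup1 (0.99), Trim26 (0.99) and Parp12 (0.99). Tlr4 was most like Rrp12 (0.90) and Tlr7 most like Abhd17b (0.93). Tlr13, Ly96 and Ticam1 had no profile closer than 0.82.

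The start regions of those of the 10 genes with an entry in a table of promoters were read for 3 short motifs, in the 250 bases before the RefSeq start (GRCm38.p6). The table held entries for Tlr2, Tlr3, Tlr13, Myd88, Ticam1 and Irak3, and none for Tlr4, Tlr7, Cd14 and Ly96. An NF-kB site was searched as GGG and TTCC with 3 free bases between them, an interferon-stimulated response element as GAAA and GAAA with 2 free bases between them, and an AP-1 site as TGANTCA, all on both strands. They were in 4.65%, 2.98% and 6.75% of 32851 promoters of the same length. Tlr2 and Tlr3 held an NF-kB match and Myd88 an interferon-type match, 1 each, and the windows of Tlr13, Ticam1 and Irak3 held none. Number 3 was the highest of every stored group in these 3 genes, and also in Irak3, which held no match. The stretches around the matches are shown with the match in capitals, 5′ to 3′ on the strand of the gene, as RefSeq gives them.
Tlr2: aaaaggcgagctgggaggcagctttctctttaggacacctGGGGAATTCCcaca
Tlr3: agttgtttctGGGAGTTTCCtgcttttgag
Myd88: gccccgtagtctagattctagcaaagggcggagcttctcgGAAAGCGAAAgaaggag

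The Tlr2 stretch (chr3:83841768-83841821, minus strand) lies just before the GENCODE gene, with the match 173 to 164 bases before the RefSeq start. That of Tlr3 (chr8:45410572-45410601, minus strand) lies 211 to 202 bases before it and inside exonic sequence of other Tlr3 transcripts. That of Myd88 (chr9:119340042-119340098, minus strand) lies 40 to 31 bases before the start, outside exons and inside the gene as GENCODE draws it. A match describes letters and not binding.

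Gene positions and shared exons bear on how far the levels can be read. In GRCm38, Cd14 lies at chr18:36725067-36726798, Tlr4 at chr4:66827584-66930284, Ly96 at chr1:16688051-16709611, Tlr7 at chrX:167304929-167330558, Tlr13 at chrX:106143204-106160493, Tlr2 at chr3:83836272-83841767, Tlr3 at chr8:45395665-45411080, Myd88 at chr9:119335934-119341411, Ticam1 at chr17:56269319-56276786 and Irak3 at chr10:120141648-120202130. Myd88 shared 290 of its 2576 exonic bases with Acaa1a on the other strand, and Irak3 192 of 3676 with Tmbim4. Acaa1a was at 48.2 TPM and Tmbim4 at 53.1 TPM on average, and reads from the shared bases could not be told apart without the strand. Tlr3 shared 381 of 5207 exonic bases with the antisense gene Gm45542, which was not among the transcripts quantified here. Myd88-201 held 90.6% to 94.5% of the Myd88 level in TPM in the group means, Tlr4-201 79.3% to 91.7% and Irak3-201 58.7% to 65.8%.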

How the data were processed

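The authors deposited estimated counts of every transcript in a library, made with kallisto against GRCm38 transcripts and not normalized between libraries. Beside them the authors deposited TPM values, scaled within a library, and transcript lengths and effective lengths. kallisto was run with default parameters, which do not use the strand.

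Estimated counts were summed to genes with GENCODE M21. Of 111462 transcripts, 1259 found no gene and were dropped (0.31% to 0.38% of counts). Sums were rounded, filtered with filterByExpr, scaled by TMM and tested over 14564 genes in LV, 14622 in RV and 15093 in all 18 libraries (edgeR 4.0.16, quasi-likelihood F test, R 4.3.3), with Benjamini-Hochberg adjustment over all of them. A gene was called at an adjusted p under 0.1 and a fold over 1.5. Storage times were compared in the 9 libraries of a ventricle, and ventricles in all 18. TPM values were used for ratios and order only. Depth limited the genes with few counts, and error was taken from the spread of libraries. DESeq2 1.42.0, other scalings, filters and thresholds, a Y-linked covariate, the replicate block and the leaving out of libraries were alternatives. Transcripts were summed in pandas 2.3.3 (Python 3.11.15), and the scripts were first tested on simulated data with known changes.

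The replicate number was taken as a pairing where every pair of same-numbered libraries deviated together by a correlation over 0.1. This held for LV against RV at each time and for RV storage times, and not for LV at 4 h or 8 h against 0 h. The study collected both ventricles of a heart, but a number was not stated to name a heart. At different storage times the hearts differ, and for numbers 2 and 3 the block joins 0 h and stored libraries that differ in Y-linked genes.

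The 10 genes and all lists were chosen with earlier results of these data known. All 10 are reported, and from the other lists up to 4 called genes each by the largest change at 8 h, with others where their role was needed. Likeness was the Pearson correlation of log2 CPM over 18 libraries (prior count 2), with the 3 highest genes. The labels give an age of the mice that differs from the text of the study, and the label was used. The kits named by the labels and by the text differ as well, and both are directional.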

Additional observations from a re-analysis of the deposited data

Results flagged for a closer look

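The difference between LV and RV in the change from 0 h to 8 h passed the test, in the fit with the replicate block, for Tlr4 (-0.77 on the log2 scale) and Myd88 (-0.84). For Tlr4, LV was above RV in 3 of 3 pairs at 0 h (mean log2 difference 0.70) and in 1 of 3 at 8 h (-0.07). Most of the Tlr4 value thus lies in the offset at 0 h. Myd88 was higher in LV in 3 of 3 pairs at 0 h (mean log2 difference 0.20) and lower in 3 of 3 at 8 h (-0.64), so the value holds the offset at 0 h as well. Both were at an adjusted p of 1 by edgeR without the block, and at an unadjusted p of 0.00280 for Tlr4 and 0.232 for Myd88. With 1 same-numbered pair of LV and RV libraries left out in turn, the blocked difference ranged from -0.89 to -0.70 for Tlr4 and from -0.93 to -0.73 for Myd88.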

How the results depend on the processing

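The count of the 10 genes called in LV at 4 h was 2. It was 4 under DESeq2, without a filter on low counts, with the replicate block, with the Y-linked covariate, with all 18 libraries in the fit, with only the 6 libraries compared and with number 3 left out, and 1 under RLE size factors, at an adjusted p under 0.05 without a minimum fold and with mitochondrial genes left out. In LV at 8 h it was 5, and 2 at an adjusted p under 0.05. DESeq2 also called Tlr3 in both ventricles and Ly96 in RV at 8 h. It called 10.3% of all genes in LV and 20.8% in RV there, in either direction. Between the ventricles the count of 0 became 1 at 0 h under DESeq2, the replicate block, the block on the number alone and the Y-linked covariate, 1 at 4 h under the block, and at 8 h 1 under DESeq2 and with number 3 left out, 4 under the block and 3 under the block on the number alone. The difference of the changes at 8 h gave 0 without and 2 with the block. Without the block, leaving out 1 library gave counts between 1 and 4 (LV 4 h), 1 and 5 (LV 8 h), 3 and 6 (RV 4 h), 6 and 7 (RV 8 h), 0 and 1 (LV against RV at 0 h) and 0 and 2 (LV against RV at 8 h, 2 without the LV library numbered 3 at 8 h), and 0 in every such fit for LV against RV at 4 h and both differences of changes. With the block, leaving out 1 pair gave 1 in every fit at 0 h, 0 to 1 at 4 h and for the difference of changes at 4 h, 1 to 5 at 8 h (1 without pair 1 and 5 without pair 3 of 8 h) and 2 to 5 for the difference of changes at 8 h (5 without pair 3 of 8 h). In LV at 8 h the count was 1 without the 0 h library numbered 2 or 3, and in RV at 4 h 3 without the 0 h library numbered 2 or 3. Calls of Cd14 and Tlr4 against 0 h, and every call in RV at 8 h, were kept without any 1 library.

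With the replicate block, the values at 4 h in LV were called for Tlr2 (1.59) and Myd88 (1.44) and at 8 h in LV for Tlr3 (1.73), although LV numbers did not pass the check of pairing, and the block ended no call. Values of the single genes kept direction and call in 972 refits, gained a call in 120 and lost it in 46, and the cause was not tested. The 12 that changed sign were of genes not called. Leaving out 1 library, LV values at 4 h ranged from -0.485 to 0.1011 for Tlr13 and from -0.0954 to 0.1602 for Ly96 (with -0.0428 among them), and at 8 h from -0.0118 to 0.1808 for Tlr4 and from -0.2172 to 0.1702 for Ly96 (with 0.0385 among them). RV values ranged from -0.1368 to 0.0592 for Ticam1 at 4 h, and at 8 h from -0.7037 to 0.5122 for Tlr13 (with -0.2848 among them) and from -0.0459 to 0.2004 for Ticam1. With number 3 left out Tlr13 was at 0.218 in LV and Ticam1 at 0.072 in RV at 4 h. Without the RV library numbered 3 at 4 h, Tlr3 was at 0.07 there. Depth limits Tlr13 and Ly96, and 3 libraries a group limit the rest.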
